A study of Mus musculus with 6 samples.

Results

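The proliferins Prl2c2, Prl2c3 and Prl2c5 are secreted relatives of prolactin, and their transcripts were followed across 6 RNA-seq libraries of NIH/3T3 cells, an established line of mouse embryonic fibroblasts. The 3 genes were taken by symbol from a count table of 54752 genes, and they were selected on their measured levels in these same libraries, so their levels and fold changes are given as a description with no p-value. Every culture was kept for 72 h, and each of 3 groups held 2 replicates. The vehicle group received PBS. The TGF-β1 + DMSO group received TGF-β1 at 1 ng/ml with the solvent DMSO. The TGF-β1 + BI6727 group received TGF-β1 at 1 ng/ml with BI6727 at 5 μM, an inhibitor of the mitotic kinase PLK1. No library had DMSO without TGF-β1, so TGF-β1 and DMSO cannot be told apart in TGF-β1 + DMSO against vehicle. The labels name no DMSO for the TGF-β1 + BI6727 group, and any DMSO there could not be told apart either. All libraries came from the same line. The study speaks of replicate experiments, but the labels do not say that the replicates were separate cultures, so p-values measure the spread between these libraries, which may be technical.

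Proliferins are placental hormones of the mouse. Trophoblast giant cells secrete them during pregnancy, where they are known to promote the growth of blood vessels. They were first found in 3T3 fibroblasts as transcripts that serum growth factors induce, and the secreted glycoprotein carries mannose 6-phosphate and binds the mannose 6-phosphate/IGF2 receptor, encoded by Igf2r. The proliferin promoter is a textbook case of a composite element, in which the glucocorticoid receptor and AP-1 factors (dimers of the FOS and JUN families) act on the same stretch of DNA.

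The 3 genes lie on mouse chromosome 13 of the mm10 build. Prl2c3 (ENSMUSG00000056457.6) spans chr13:12790816-12800079 on the minus strand, Prl2c2 (ENSMUSG00000079092.4) spans chr13:12996125-13005383 on the minus strand, and Prl2c5 (ENSMUSG00000055360.13) spans chr13:13182715-13191923 on the plus strand. Gaps of 196046 bases and 177332 bases separate neighbouring copies. A further gene of the subfamily, Prl2c1 (ENSMUSG00000062551.13), lies 14657419 bases beyond Prl2c5 on the same chromosome. Prl2c4, also of this subfamily, was not found by symbol in the count table, so it could not be followed. Each of the 4 genes has 5 exons in the transcript used here.

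How well the reads could tell the copies apart depends on their sequences. The coding sequences of Prl2c2 and Prl2c3 were the same at 672 of 675 bases, stop codon included. Counted from 1 at the first coding base of Prl2c2, the 3 differences from Prl2c2 to Prl2c3 were T14C, C200A and T319G, which change the protein at L5S, T67N and S107A. Prl2c5 was further away, with 96.2% of coding bases and 91.5% of residues the same as in Prl2c2. The exonic stretch between coding positions 316 and 365 is shown because it holds T319G and also sets Prl2c5 apart. It lies at chr13:12997418-12997467 in Prl2c2, chr13:12792125-12792174 in Prl2c3 and chr13:13190586-13190635 in Prl2c5, and capitals mark the 4 positions at which any of the 3 differ.
Prl2c2: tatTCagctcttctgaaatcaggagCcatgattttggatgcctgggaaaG
Prl2c3: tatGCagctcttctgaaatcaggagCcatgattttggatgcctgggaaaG
Prl2c5: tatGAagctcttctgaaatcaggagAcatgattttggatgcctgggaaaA
A read of 50 bases that covers this stretch differs between Prl2c2 and Prl2c3 at a single base.

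Reads were 50 bases long, so each transcript was cut into all its windows of that length and each window was looked up in the transcripts of the other genes. Of the Prl2c2 windows, 71.5% also occurred in Prl2c3, 22.2% in Prl2c5, and 16.7% in no other gene. Prl2c3 had more sequence of its own, with 40.0% of its windows in no other gene, while the share was 64.9% for Prl2c5 and 73.6% for Prl2c1. With mismatches allowed the copies were closer: 77.8% of Prl2c3, 45.8% of Prl2c5 and 22.6% of Prl2c1 windows lay within 1 base of a Prl2c2 window, and 73.2% of Prl2c5 and 58.5% of Prl2c1 windows lay within 3 bases. Whether Prl2c2 reads were counted under the weakly expressed copies was not tested. The unprocessed pseudogene Gm7040, also on chromosome 13, shared 189 windows with Prl2c2. How reads that fit several copies were assigned is not given in the sources used here, and neither is the strand setting of the counting. The split of counts between Prl2c2 and Prl2c3 is therefore uncertain, and the sum of the 3 genes is given beside them.

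The 250 bases before the start site are shown for the members that have a RefSeq promoter entry (GRCm38.p6), since these copies carry the region in which the composite element is known. Capitals mark the bases that differ in the alignment of both sequences. The first lies at chr13:12800080-12800329 on the minus strand and the second at chr13:13182466-13182715 on the plus strand.
Prl2c3: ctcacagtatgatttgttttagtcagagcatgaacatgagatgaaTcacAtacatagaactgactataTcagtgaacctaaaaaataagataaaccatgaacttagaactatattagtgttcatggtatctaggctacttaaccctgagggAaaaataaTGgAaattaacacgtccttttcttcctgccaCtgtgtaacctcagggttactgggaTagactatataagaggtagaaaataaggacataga
Prl2c5: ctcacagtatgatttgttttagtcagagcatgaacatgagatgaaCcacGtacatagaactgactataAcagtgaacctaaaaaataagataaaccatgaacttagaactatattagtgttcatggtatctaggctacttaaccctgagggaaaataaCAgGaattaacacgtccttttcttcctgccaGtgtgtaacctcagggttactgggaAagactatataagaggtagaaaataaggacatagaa
They were the same at 241 of 250 aligned positions, with 8 substitutions and 1 gap base. Both held the TATA-type motif TATATAAG, at base -30 in Prl2c3 and -31 in Prl2c5, a motif found on either strand in 0.935% of 32851 promoter windows. The AP-1 motif TGACTCA (4.46% of promoter windows) was in neither, and the looser form TGANTCA, which includes it (6.75% of windows), occurred in Prl2c3 alone, at base -209. The glucocorticoid receptor site letters TGTTCT (16.1% of windows) were not found in these windows. The palindrome GTCTAGAC (0.167%), a different motif that is not a glucocorticoid receptor site, was also absent.

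Depth was similar across the study, with 18362378 to 24452153 counts per library. The TGF-β1 + DMSO libraries stood apart from each other. The SD of the log2 difference between replicates, over all genes tested, was 0.377 there against 0.163 for vehicle and 0.147 for TGF-β1 + BI6727, so values that rest on the TGF-β1 + DMSO group are also given without either of its libraries. In each library more genes had exactly 2 counts (1495 to 1692) than exactly 1 count (1032 to 1173). Counts may thus not be independent molecules, and the intervals below cover counting error only.

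Prl2c2 was among the most abundant transcripts of the unstimulated cells. Levels are given as normalized CPM, a gene's counts scaled to library size after correction by the trimmed mean of M values (TMM), and per length as normalized CPM per kilobase (RPKM). Per length, Prl2c2 ranked 12 in both vehicle libraries among the 24904 genes with a count in any library, at a mean of 3081 ± 81.9 (SD, n = 2). Prl2c3 had 681 ± 71.4 RPKM (SD, n = 2) and ranked 117 and 105. Prl2c5 had 3.69 ± 0.519 RPKM (SD, n = 2) and ranked 8611 and 9177. On this scale the vehicle level of Prl2c2 was 4.52-fold that of Prl2c3 and 834-fold that of Prl2c5, and the order was the same in all 6 libraries with no overlap between genes. Folds and ranks use whole gene lengths, although 16.7% of Prl2c2, 40.0% of Prl2c3 and 64.9% of Prl2c5 windows occurred in no other gene. These folds and ranks thus depend on how shared reads were counted, which is not given. The 3 genes held 0.426% of all counts in each vehicle library. The share was 0.237% and 0.301% in TGF-β1 + DMSO replicates 1 and 2, and 0.200% and 0.209% in the TGF-β1 + BI6727 libraries.

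**Figure D1:**
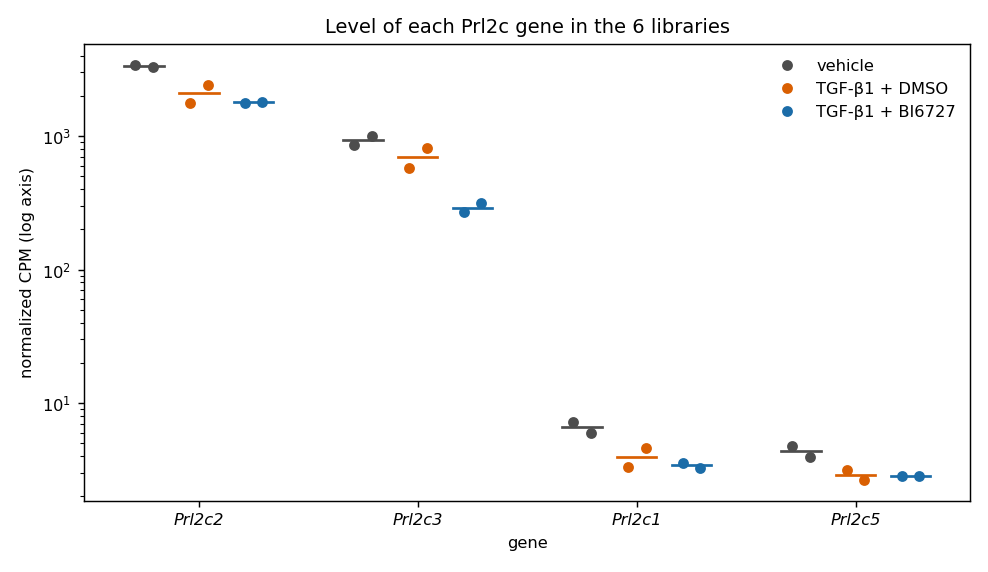
Normalized CPM (log axis) of the 4 Prl2c genes found in the count table, in each of the 6 libraries. Points are libraries, horizontal lines are means of 2 libraries and colours are groups. Prl2c2 and Prl2c3 sit far above Prl2c1 and Prl2c5, and for Prl2c3 the TGF-β1 + BI6727 libraries (270 and 313) lie below all others.

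Prl2c2, the copy with most counts, was lower under TGF-β1 in both treated groups. Its normalized CPM was 3421 and 3295 in vehicle replicates 1 and 2. It was 1769 and 2409 in TGF-β1 + DMSO replicates 1 and 2. With BI6727 it was 1773 and 1797. Neither TGF-β1 + DMSO library reached the vehicle range, and both TGF-β1 + BI6727 libraries lay within the span of the TGF-β1 + DMSO libraries.

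Prl2c3 followed another order. Its normalized CPM was 858 and 995 in the vehicle libraries. The TGF-β1 + DMSO libraries had 576 and 820, both below the vehicle libraries. With BI6727 the values were 270 and 313, below those of both other groups. With 2 libraries a group, such orders are only a description for each member. Their share over all genes is not given here.

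Prl2c5 was weakly expressed, with 92 and 86 reads in the vehicle libraries. TGF-β1 + DMSO replicates 1 and 2 had 65 and 55 reads, and the TGF-β1 + BI6727 libraries had 51 and 69. As normalized CPM these were 4.78 and 3.91, then 3.14 and 2.65, then 2.84 and 2.86, so both TGF-β1 groups were below the vehicle libraries and overlapped each other. Prl2c5 failed the expression filter of at least 10 CPM in more than 3 samples, which the other 2 members passed, and its fold changes come from a fit over the 17936 genes with at least 10 counts in total.

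TGF-β1 + DMSO against vehicle compares the TGF-β1 response, DMSO included. The log2 fold change was -0.68 ± 0.169 (SE) for Prl2c2, -0.41 ± 0.182 for Prl2c3 and -0.57 ± 0.255 for Prl2c5. For the summed counts of the 3 genes it was -0.62 ± 0.175, from 4289 ± 7.12 to 2790 ± 625 normalized CPM (SD, n = 2 each). The size depended on the TGF-β1 + DMSO library: Prl2c2 was at -0.48 without replicate 1 and -0.91 without replicate 2, and Prl2c3 was at -0.18 and -0.67. The direction was the same each time. Of the 2 members tested, 0 passed an adjusted p below 0.01 with a fold change above 2, where 2.53% of the 9518 genes tested passed with a lower level and 2.56% with a higher level. DESeq2 also called 0 of the 2 members here, and over all genes 3595 had an unadjusted p below 0.05 in the edgeR test.

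TGF-β1 + BI6727 against TGF-β1 + DMSO compares the inhibitor with its solvent in stimulated cells, and here the copies parted. Prl2c3 had a log2 fold change of -1.26 ± 0.185, 0.418 times the TGF-β1 + DMSO level. For Prl2c2 the value was -0.23 ± 0.168, and for Prl2c5 it was -0.02 ± 0.262. The summed counts gave -0.42 ± 0.175. Without TGF-β1 + DMSO replicate 1 the Prl2c3 value was -1.49, and without replicate 2 it was -0.995, while Prl2c2 was at -0.43 and -6.3e-05 and Prl2c5 at 0.11 and -0.16. A lower Prl2c3 was thus seen with either solvent library, whereas the Prl2c2 difference vanished against replicate 1 alone and the sign for Prl2c5 changed. In edgeR 0 of the 2 members tested passed the threshold, as did 0% of all genes in each direction, although 636 genes had an unadjusted p below 0.05. With DESeq2 on the same genes, 1 of the 2 members (Prl2c3) passed, where 0.116% of all genes passed with a lower level. Prl2c3 also passed in edgeR without TGF-β1 + DMSO replicate 1, with offsets for gene length and with the filter of at least 1 count, and in no other alternative that was run.

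TGF-β1 + BI6727 against vehicle gave the lowest values. The log2 fold change was -1.67 ± 0.187 for Prl2c3, -0.91 ± 0.169 for Prl2c2 and -0.59 ± 0.256 for Prl2c5. In linear terms Prl2c3 was at 0.315 times and Prl2c2 at 0.532 times the vehicle level. The summed counts stood at -1.04 ± 0.176, from 4289 ± 7.12 to 2079 ± 47.8 normalized CPM (SD, n = 2 each). Of the 2 members tested, 1 (Prl2c3) passed the threshold, where 2.96% of the genes tested passed with a lower level and 2.34% with a higher level. It no longer passed when vehicle replicate 1, vehicle replicate 2, TGF-β1 + BI6727 replicate 1 or TGF-β1 + BI6727 replicate 2 was left out, with 0 members called each time and log2 fold changes of Prl2c3 over all left-out libraries between -1.79 and -1.56. Each group enters 2 of the 3 comparisons, so the comparisons share libraries and are not independent of each other.

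**Figure D2:**
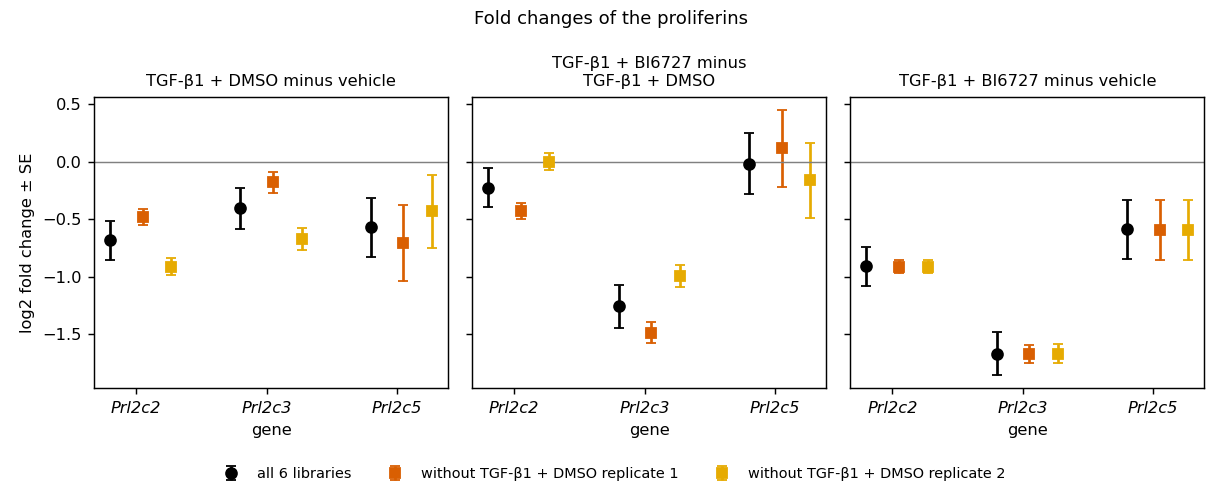
Log2 fold change ± SE of Prl2c2, Prl2c3 and Prl2c5 in the 3 comparisons (panels), with all 6 libraries (black) and without either TGF-β1 + DMSO library (orange and yellow). Prl2c3 lies between -1.49 and -0.995 in the middle panel, where Prl2c2 lies between -0.43 and -6.3e-05.

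A ratio of copies within a library needs no scaling between libraries. Prl2c3 counts as a percent of Prl2c2 counts were 25.1% and 30.2% in vehicle replicates 1 and 2, with 95% Wilson intervals of 24.7% to 25.5% and 29.7% to 30.7% derived from the share of the pair. The ratio was 32.6% and 34.0% in the TGF-β1 + DMSO libraries. With BI6727 it was 15.2% and 17.4%, below every library without the inhibitor. The means were 27.6% ± 3.62 for vehicle, 33.3% ± 1.04 for TGF-β1 + DMSO and 16.3% ± 1.58 for TGF-β1 + BI6727 (SD, n = 2 each). Vehicle and TGF-β1 + DMSO differed by less than the gap of either to the BI6727 group, and the replicates of the vehicle group differed by more than counting error. The TGF-β1 + DMSO libraries, far apart in level, were close in this ratio.

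The same ratio was less clear for the weakly expressed copies. Prl2c5 was at 0.140% and 0.119% of Prl2c2 counts in vehicle, 0.177% and 0.110% in TGF-β1 + DMSO, and 0.160% and 0.159% in TGF-β1 + BI6727. The TGF-β1 + DMSO libraries thus spanned both other groups, while both TGF-β1 + BI6727 libraries were above the vehicle libraries, the opposite order from Prl2c3. That order is uncertain, since the intervals overlapped. They were 0.122% to 0.210% and 0.126% to 0.201% with BI6727, and 0.114% to 0.171% and 0.0962% to 0.147% in vehicle. Prl2c1, which has less sequence in common with the others, ranged only from 0.181% to 0.209%, a span of 1.16-fold against 2.24-fold for Prl2c3. At 51 to 92 reads per library the Prl2c5 intervals were wide, for example 0.139% to 0.226% in TGF-β1 + DMSO replicate 1.

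**Figure D3:**
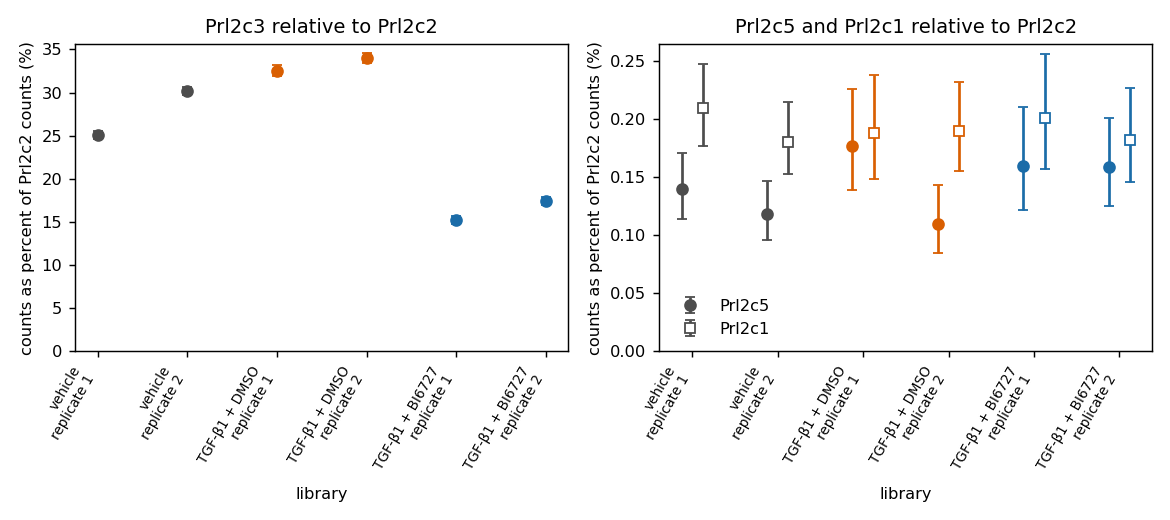
Counts of Prl2c3 (left panel) and of Prl2c5 and Prl2c1 (right panel) as a percent of Prl2c2 counts in each library, with 95% Wilson intervals and colours for the groups. Prl2c3 lies at 15.2% and 17.4% in the TGF-β1 + BI6727 libraries and at 25.1% or more in the others, whereas for Prl2c5 the TGF-β1 + DMSO libraries (0.177% and 0.110%) span the other groups and for Prl2c1 all groups overlap.

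Prl2c1, a subfamily gene outside the 3 members, was not used in the selection, but its counts may not be independent of Prl2c2. Its windows are shared in part, and its counts stayed at 0.18% to 0.21% of Prl2c2 counts. Whether Prl2c1 reads came from Prl2c2 was not tested. Prl2c1 had 138 and 131 reads in the vehicle libraries. TGF-β1 + DMSO replicates 1 and 2 had 69 and 95 reads, and the TGF-β1 + BI6727 libraries had 64 and 79. In the fit over 17936 genes its log2 fold change was -0.72 ± 0.241 for TGF-β1 + DMSO against vehicle (adjusted p = 0.0732, edgeR) and -0.93 ± 0.244 for TGF-β1 + BI6727 against vehicle (adjusted p = 0.0285), and neither reached the threshold. Between both TGF-β1 groups it was -0.21 ± 0.251 (adjusted p = 0.920).

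Gm7040 was looked at after its values were seen, because of the windows it shares with the proliferins. Its reads numbered 198 and 243 in vehicle, 102 and 119 in TGF-β1 + DMSO and 72 and 108 in TGF-β1 + BI6727. In the same fit its log2 fold change was -0.99 ± 0.196 (adjusted p = 0.00761), -0.32 ± 0.205 (adjusted p = 0.829) and -1.31 ± 0.199 (adjusted p = 0.00172) in the order TGF-β1 + DMSO against vehicle, TGF-β1 + BI6727 against TGF-β1 + DMSO, and TGF-β1 + BI6727 against vehicle. The last of these passed the threshold, where 3.13% of the 17936 genes passed with a lower level. The call was lost without vehicle replicate 1 or 2 (adjusted p = 0.0228 and 0.0317) and without TGF-β1 + BI6727 replicate 1 or 2 (0.0475 and 0.0358). Whether these reads came from Gm7040 or from the proliferins was not tested.

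The rest of the prolactin family was nearly silent. Of 24 other family genes in the table, growth hormone included, 12 had 0 counts in all 6 libraries, and the genes other than Prl2c1 held 70 counts between them. Prl8a9 had 19 counts over the 6 libraries, and Prl3d2 and Prl6a1 had 10 each, with no more than 10 in a single library. The placental lactogens and prolactin-like genes that trophoblast cells also use were thus at or near 0 in the libraries in which Prl2c2 and Prl2c3 were abundant.

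The label of the cells was checked against markers of the cell types that make proliferins or could be mixed in. The summed level of 9 fibroblast markers lay between 7975 and 10550 normalized CPM in each library, with none at 0, and Vim alone made up 4014 to 5126 of it. Some fibroblast markers were lower in the same groups. Of the 9, 1 passed the threshold downwards in TGF-β1 + DMSO against vehicle and 3 in TGF-β1 + BI6727 against vehicle. Over all genes tested, 2.53% and 2.96% passed with a lower level. The medians of the 9 were -0.67 and -1.003, but 4 and 3 of the 9 lay above 0, with 0 past the threshold upwards. Fn1 had 1441 and 1323 normalized CPM in vehicle and 2180 and 2277 in TGF-β1 + BI6727. Pdgfra fell in both comparisons (log2 fold change -1.87 and -1.80, adjusted p = 0.00195 and 0.00213, edgeR). Pdgfrb (-1.20, adjusted p = 0.00930) and Thy1 (-1.003, adjusted p = 0.000675) fell in the second. The part of such a shift in the proliferin levels was not tested. The summed level of 11 trophoblast and placenta markers was 1.05 to 1.19 normalized CPM in vehicle, 0.241 to 0.482 in TGF-β1 + DMSO and 0.111 to 0.704 in TGF-β1 + BI6727, and 7 of the 11, among them Hand1, Tpbpa and Gcm1, were at 0 in all libraries. Epithelial, leukocyte and endothelial markers summed to no more than 2.08, 4.69 and 3.77 normalized CPM. The endothelial sum was 0.312 to 0.910 in vehicle, 2.89 to 3.77 in TGF-β1 + DMSO and 2.00 to 2.65 in TGF-β1 + BI6727, and the epithelial sum was 0.364 to 0.501, 1.93 to 2.08 and 0.538 to 1.39. In bulk RNA fewer cells that express a gene and less RNA per cell cannot be told apart.

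The receptor and the tagging enzymes on which secreted proliferin depends were expressed in every library, and 0 of 5 passed the threshold in any comparison with edgeR or with DESeq2. An unadjusted p below 0.05 in edgeR was reached by 2 of the 5 in each comparison with vehicle and by 0 between the TGF-β1 groups. Igf2r, the mannose 6-phosphate/IGF2 receptor, had 220 and 246 normalized CPM in vehicle, 423 and 205 in TGF-β1 + DMSO, and 388 and 390 in TGF-β1 + BI6727. Its TGF-β1 + DMSO libraries thus spanned the whole range of the study, and its log2 fold change was 0.74 ± 0.289 (adjusted p = 0.106) for TGF-β1 + BI6727 against vehicle. M6pr, the other mannose 6-phosphate receptor, stayed between 207 and 256 normalized CPM. Gnptab and Gnptg, subunits of the enzyme that starts the mannose 6-phosphate tag, had values of -0.33 ± 0.169 (adjusted p = 0.201) and 0.42 ± 0.154 (adjusted p = 0.0901) for TGF-β1 + DMSO against vehicle. Nagpa, which uncovers the tag, had 0.03 ± 0.131 (adjusted p = 0.880). The median of the 5 was 0.23 there, beside -0.005 over all genes tested.

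The prolactin receptor gene Prlr had 0 counts in each library, which allows up to 3 counts of the library total. Ghr, the growth hormone receptor, was level at 127 to 135 normalized CPM. Among Ghr and the tested genes downstream of these receptors, 7 in all, 1 passed the threshold downwards in TGF-β1 + DMSO against vehicle. In TGF-β1 + BI6727 against vehicle 3 of 7 passed downwards. Over all genes tested, 2.53% and 2.96% passed with a lower level. All that passed of the 7 were SOCS genes, which encode feedback inhibitors of cytokine receptor signalling and respond to many cytokines. Medians of the 7 were -0.49 and -0.51, beside -0.005 and 0.003 over all genes tested.

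Socs3 had 81.7 and 66.9 normalized CPM in vehicle, 31.9 and 26.7 in TGF-β1 + DMSO, and 27.9 and 29.1 in TGF-β1 + BI6727. It fell against vehicle in both TGF-β1 groups, with a log2 fold change of -1.34 ± 0.148 in TGF-β1 + DMSO (adjusted p = 0.00105) and -1.38 ± 0.148 in TGF-β1 + BI6727 (adjusted p = 0.000866). Socs1 (-1.12 ± 0.145, adjusted p = 0.00201) and Socs2 (-1.27 ± 0.188, adjusted p = 0.00337) fell in TGF-β1 + BI6727 against vehicle. These calls needed both libraries of a group. Adjusted p was 0.0216 and 0.0105 for Socs3 in TGF-β1 + DMSO without vehicle replicate 1 or 2. In TGF-β1 + BI6727 it was 0.0188, 0.0177 and 0.0156 for Socs3 without vehicle replicate 1, TGF-β1 + BI6727 replicate 1 or replicate 2. Without either library of vehicle or of TGF-β1 + BI6727 it lay between 0.0259 and 0.0341 for Socs1 and between 0.0124 and 0.0461 for Socs2.

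Among the AP-1 and glucocorticoid receptor genes tied to the composite element, 6 of 8 passed the expression filter and 1 of the 6, Fosl2, passed the threshold. It did so downwards in both comparisons with vehicle. Over all genes tested, 2.53% (TGF-β1 + DMSO) and 2.96% (TGF-β1 + BI6727) passed with a lower level. The 2 genes under the filter, Fos and Fosb, are given from the fit over 17936 genes. Fosl2, which encodes the FOS-family protein FRA-2, had 184 and 164 normalized CPM in vehicle, 83.7 and 77.6 in TGF-β1 + DMSO, and 72.5 and 77.95 in TGF-β1 + BI6727. Against vehicle it fell in both TGF-β1 groups, with a log2 fold change of -1.11 ± 0.105 in TGF-β1 + DMSO (adjusted p = 0.000517) and -1.21 ± 0.105 in TGF-β1 + BI6727 (adjusted p = 0.000346). Both calls were lost without vehicle replicate 1 (adjusted p = 0.0163 and 0.0109), and the second also without TGF-β1 + BI6727 replicate 1 (adjusted p = 0.0105). With offsets for gene length the first was at -0.94, under the fold change of 2.

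Fos, the founding gene of the family and an immediate early gene, had 28.98 and 11.5 normalized CPM in vehicle, 2.03 and 3.27 in TGF-β1 + DMSO, and 3.45 and 4.26 in TGF-β1 + BI6727. The vehicle libraries were far apart but both above all others. Its log2 fold change against vehicle was -2.91 ± 0.418 in TGF-β1 + DMSO (adjusted p = 0.00132) and -2.36 ± 0.401 in TGF-β1 + BI6727 (adjusted p = 0.00325). Both passed the threshold in this fit, where 2.72% and 3.13% of genes passed with a lower level. Without vehicle replicate 1, the higher library, the values were -2.12 (adjusted p = 0.0134) and -1.57 (adjusted p = 0.0368). Both calls were also lost without TGF-β1 + BI6727 replicate 1 (adjusted p = 0.0142 and 0.0948) or replicate 2 (0.0131 and 0.0709), and the first with its 2 groups alone (0.0115). Fosb had 0.78 ± 0.282 (adjusted p = 0.0929) and 0.76 ± 0.282 (adjusted p = 0.0988) in the same comparisons.

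The other 5 factors above the filter did not pass. Nr3c1, the glucocorticoid receptor, had 100 and 97.2 normalized CPM in vehicle, 68.1 and 47.0 in TGF-β1 + DMSO, and 53.5 and 58.8 in TGF-β1 + BI6727. Against vehicle its log2 fold change was -0.78 ± 0.171 (adjusted p = 0.0177, edgeR) in TGF-β1 + DMSO and -0.81 ± 0.171 (adjusted p = 0.0138) in TGF-β1 + BI6727. Jun stayed between 198 and 216 normalized CPM in all libraries. Junb had 0.44 ± 0.151 (adjusted p = 0.0776) and Jund 0.52 ± 0.155 (adjusted p = 0.0486) for TGF-β1 + DMSO against vehicle. Fosl1, which encodes FRA-1, had 0.34 ± 0.114 (adjusted p = 0.0702). Between the TGF-β1 groups, where Prl2c3 differed, the 6 genes above the filter lay between -0.24 and 0.08 on the log2 scale, with 0 past the threshold in edgeR or DESeq2 and 0 at an unadjusted p below 0.05. Of 5 target genes of the glucocorticoid receptor that were tested, 0 passed in any comparison with either tool. In each comparison with vehicle 2 of the 5 had an unadjusted p below 0.05, against 0 between the TGF-β1 groups. Of the 9518 genes tested, 3595 (TGF-β1 + DMSO) and 3591 (TGF-β1 + BI6727) had such a p against vehicle. In the same order, 3 and 4 of the 5 lay below 0. Sgk1 was at -0.57 (adjusted p = 0.0105, edgeR) and -0.68 (adjusted p = 0.00482). Per1, under the filter, was at -0.90 (adjusted p = 0.0132) and -0.99 (adjusted p = 0.00802) in the fit over 17936 genes and did not pass.

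Proliferin takes its name from proliferating cells, so growth-linked genes were set beside it. Of 16 such genes tested, from Myc and Ccnd1 to the Mcm genes and mitotic genes, 0 passed the threshold in any comparison with edgeR or DESeq2. An unadjusted p below 0.05 in edgeR was reached by 8 of them for TGF-β1 + DMSO against vehicle. It was reached by 2 for TGF-β1 + BI6727 against TGF-β1 + DMSO, and by 9 for TGF-β1 + BI6727 against vehicle. Over the 9518 genes tested, 3595, 636 and 3591 had such a p. The medians of the 16 were -0.13, -0.06 and -0.13, beside -0.005, -0.003 and 0.003 over all genes tested. Of the 16 genes, 9, 12 and 11 lay below 0 in the same order, and 7, 4 and 5 above. Single genes moved in opposite directions. Ccnd1 had 228 and 305 normalized CPM in vehicle and 485 and 542 in TGF-β1 + BI6727. Mki67 had 138 and 158 in vehicle and 77.3 and 85.4 in TGF-β1 + BI6727.

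Around the proliferin cluster, 47 other genes had a start within 500 kb of a member, of which 17 had 0 counts and 7 were tested. Nid1, which encodes the basement membrane protein nidogen-1 and starts 432 kb from Prl2c2, was the gene among these 7 that passed the threshold. It did so downwards in both comparisons with vehicle. Over all genes tested, 2.53% (TGF-β1 + DMSO) and 2.96% (TGF-β1 + BI6727) passed with a lower level. The pseudogene Gm7040, described above from the low-count fit, is also among the 47. Nid1 had 945 and 883 normalized CPM in vehicle, 326 and 175 in TGF-β1 + DMSO, and 286 and 297 in TGF-β1 + BI6727. It fell in both groups against vehicle, with a log2 fold change of -1.87 ± 0.260 in TGF-β1 + DMSO (adjusted p = 0.00289) and -1.65 ± 0.258 in TGF-β1 + BI6727 (adjusted p = 0.00437). The first call was lost without vehicle replicate 1 or 2 (adjusted p = 0.0433 and 0.0329) or TGF-β1 + BI6727 replicate 1 or 2 (0.0102 and 0.010), and the second without any of the same 4 libraries (0.0435 to 0.0543). The fit with 2 groups alone also ended the first (0.0104). The median of the 7 neighbours was -0.35 and -0.50 in these comparisons, and the tested neighbour nearest to Prl2c2, Gm2423, at 228 kb, had 0.00 ± 0.130 and 0.17 ± 0.130.

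**Figure D4:**
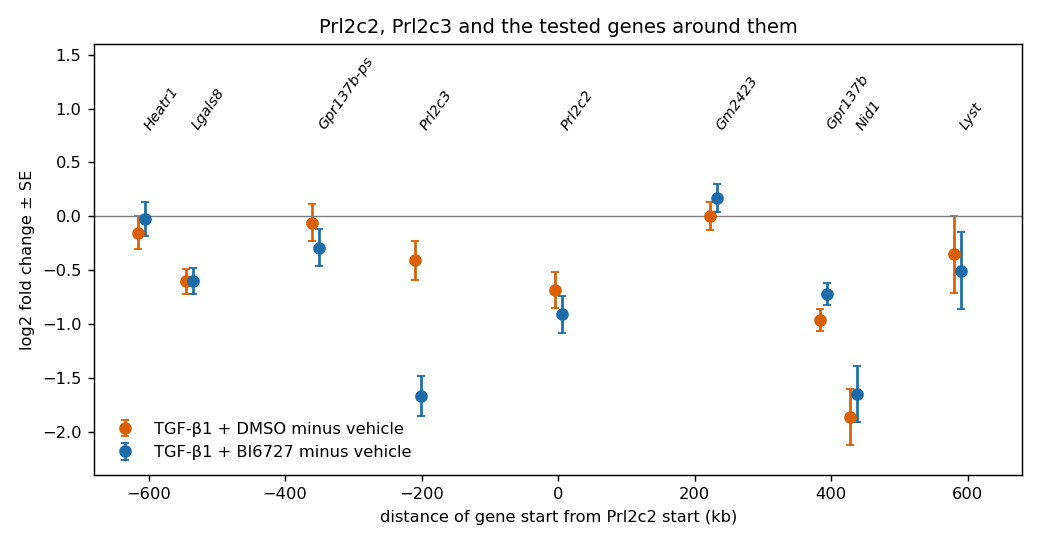
Log2 fold change ± SE against vehicle of Prl2c2, Prl2c3 and the 7 tested genes around them, by distance in kb of each gene's start from that of Prl2c2, for TGF-β1 + DMSO (orange) and TGF-β1 + BI6727 (blue), drawn with a small sideways shift. Prl2c3 is the gene at which the groups are furthest apart (-0.41 and -1.67), and Nid1 has the lowest value in TGF-β1 + DMSO (-1.87).

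The genes whose pattern over the 6 libraries came closest to the summed proliferins were Socs1, Il17rc, Gm10282, Tk1 and Arhgdib. Likeness was the root mean square difference between log2 CPM values, each gene centred on its own mean, and these 5 lay at 0.0686, 0.0689, 0.0706, 0.0755 and 0.0770. The median over the 9516 genes compared was 0.480. Prl2c2 itself was at 0.0840 and Prl2c3 at 0.364 from the sum, so the pattern of the sum was mainly that of Prl2c2, and Prl2c3 and Prl2c2 were 0.447 apart. Tk1, the thymidine kinase of dividing cells, had 125 and 128 normalized CPM in vehicle, 72.8 and 86.1 in TGF-β1 + DMSO, and 58.4 and 57.1 in TGF-β1 + BI6727. Socs1 had 47.7 and 51.0 in vehicle, 26.4 and 32.9 in TGF-β1 + DMSO, and 21.8 and 23.6 in TGF-β1 + BI6727. The likeness is a description over 6 libraries that share treatment and scaling.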

How the data were processed

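RNA-seq was carried out on 6 libraries of NIH/3T3 cells (3 groups, 2 replicates each). Per the study's methods, single-end reads of 50 bases from a BGISEQ-500 were mapped to mm10 with Subjunc (1.6.4), and the authors deposited raw read counts per gene from featureCounts with Gencode annotation. Gene lengths came with the table. Strand setting and the treatment of reads that fit several copies are not given in the sources used here, so reads of near-identical copies may be split or lost.

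From these counts, edgeR (4.0.16, R 4.3.3) quasi-likelihood tests were fitted to all 6 libraries with TMM scaling, no covariate and 3 residual degrees of freedom, on the 9518 genes that reached 10 CPM in more than 3 libraries. Genes that failed this filter were taken from a fit on the 17936 genes with at least 10 counts in total. Calls needed a Benjamini-Hochberg adjusted p below 0.01 and a fold change above 2. DESeq2 (1.42.0), other scalings and filters, a replicate block and leaving out each library were alternatives, and the procedure was tested on simulated data. RPKM is normalized CPM per kilobase of the deposited length. Sequences came from GENCODE transcripts (GRCm38) and RefSeq promoter entries, which matched 2 of the 3 members by symbol.

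The members, the gene lists and the rule for named genes were chosen with earlier results of these data known. Named were the members, the other Prl2c genes, family genes with at least 10 counts, the receptor, AP-1 and glucocorticoid receptor genes that passed the filter, up to 5 genes past the threshold of each other list, and the 5 genes closest in pattern to the summed proliferins. Other genes were named outside this rule, with results of these data known. Among them were Fos, Fosb, Ccnd1, Mki67, Sgk1, Per1, Fn1, Vim, Gm2423 and Gm7040. Same-numbered replicates did not deviate together, so the fit had no block. Per-library depth was 18362378 to 24452153 counts. With 2 libraries a group, the spread rests on few values.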

Additional observations from a re-analysis of the deposited data

How the results depend on the processing

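In TGF-β1 + DMSO against vehicle, leaving out each library gave log2 fold changes between -0.91 and -0.48 for Prl2c2, between -0.67 and -0.18 for Prl2c3, between -0.71 and -0.43 for Prl2c5 and between -0.86 and -0.41 for the sum. In TGF-β1 + BI6727 against TGF-β1 + DMSO the ranges were -0.43 to -6.3e-05 for Prl2c2, -1.49 to -0.995 for Prl2c3, -0.16 to 0.11 for Prl2c5 and -0.63 to -0.19 for the sum. In TGF-β1 + BI6727 against vehicle they were -0.94 to -0.89 for Prl2c2, -1.79 to -1.56 for Prl2c3, -0.72 to -0.46 for Prl2c5 and -1.07 to -1.02 for the sum. A group left with 1 library was assumed to vary like the others. Of 117 listed genes outside the members, 46 were tested, and 3, 0 and 5 passed in the comparisons in this order. Leaving out a library gave 0 to 7, 0 and 0 to 5, and an adjusted p below 0.05 with no minimum fold change gave 18, 0 and 19. Offsets for gene length, chosen after seeing the data, moved TGF-β1 + BI6727 against vehicle to -0.998 for Prl2c2 and -1.13 for the sum, by more than the replicate SD, and gave -1.19 for Prl2c3 and 0.005 for Prl2c5 between the TGF-β1 groups. The cause was not tested. The other alternatives, DESeq2, its size factors, total counts, other filters and 2 groups alone, kept each proliferin value within 1 replicate SD of the main value.

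Over all genes in TGF-β1 + BI6727 against TGF-β1 + DMSO, edgeR called 0, DESeq2 11, the filter of at least 10 counts 2, that of at least 1 count 47, length offsets 6, and the fits without TGF-β1 + DMSO replicate 1 or 2 called 61 and 18. In TGF-β1 + DMSO against vehicle 485 genes passed, against 1231, 901 and 874 with the filters of at least 1 count, at least 10 counts and edgeR's own, 792 without TGF-β1 + DMSO replicate 1, and 127 and 161 without vehicle replicate 1 or 2. In TGF-β1 + BI6727 against vehicle 505 passed, against 1276, 929 and 908 with those filters, 163 and 209 without vehicle replicate 1 or 2, and 223 and 224 without TGF-β1 + BI6727 replicate 1 or 2.

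The labels give same-numbered replicates no link beyond the number, and the correlations of their deviations were -0.11, 0.0466 and -0.258. These values cannot show whether such replicates shared a batch. With the replicate number as a block, Prl2c2 was at -0.70, -0.22 and -0.91, Prl2c3 at -0.42, -1.25 and -1.67, Prl2c5 at -0.57, -0.008 and -0.58, and the sum at -0.63, -0.41 and -1.05, with 3, 0 and 5 listed genes and 453, 0 and 478 genes called. A crossed pairing, chosen after seeing the data, called 491, 0 and 523 genes. At 51 to 92 reads per library, counting error limits Prl2c5.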
